A study of Mus musculus with 3 samples.

Results

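Platelet-derived growth factor (PDGF) signalling was examined through its 4 ligand genes, Pdgfa, Pdgfb, Pdgfc and Pdgfd, and its 2 receptor genes, Pdgfra and Pdgfrb. The members were taken by gene symbol, and all 6 were found among the 18245 genes of the expression table. The samples were cultured cells from hearts of C57BL/6 mice, measured by poly(A) RNA sequencing, with 3 RNA samples of each of 3 kinds. No genotype change or transgene was listed for any kind.

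The first kind, CDC, consisted of cardiosphere-derived cells, which grow out of cultured tissue pieces through a floating sphere stage. They came from ventricular epicardium of 6-week-old mice and were at passage 3. The second kind, CDC-EpiC, was an epithelial clone picked from CDCs kept for 2 weeks in 10 µM SB-431542, a kinase inhibitor of the type I receptors for TGF-beta. The third kind, pEpiC, consisted of primary epicardial cells, also at passage 3. The authors obtained them by enzymatic digestion of dissected hearts of mice aged 6 to 8 weeks. The CDC and pEpiC cultures received no inhibitor. A CDC clone grown without it was not part of the design, so the inhibitor and the picking of a clone cannot be told apart. The passage of the clone was not given. By the authors' methods, CDC and pEpiC were also grown in different media with different serum, so medium and kind cannot be told apart. The labels did not say whether the 3 RNA samples of a kind came from separate animals or cultures, nor whether the CDC-EpiC samples held more than 1 clone. The p-values therefore measure only the spread between these RNA samples, which may be technical.

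PDGF ligands are secreted dimers that bind receptor tyrosine kinases on nearby cells, and binding brings a pair of receptor chains together so that they phosphorylate each other. PDGF-A acts mainly through the alpha receptor, PDGF-B binds both receptors, and PDGF-C and PDGF-D carry a CUB domain that proteases must remove before the ligand can bind. In the developing heart, the alpha receptor is known for its part in the formation of cardiac fibroblasts from the epicardium, and the beta receptor for its part in the formation of coronary smooth muscle and pericytes.

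All 6 genes are protein-coding, and their positions are those of RefSeq on mouse build GRCm38.p6, the genome that the submitters name as mm10. The ligand genes are Pdgfa at chr5:138976014-139000792, Pdgfb at chr15:79995865-80024614, Pdgfc at chr3:81036416-81214040 and Pdgfd at chr9:6168363-6534284. Of the receptor genes, Pdgfra is at chr5:75151322-75198206. The promoters of Pdgfra, Pdgfd and Pdgfc are shown because these 3 members were higher in the CDC-EpiC clone than in CDC. Each sequence runs 5′ to 3′ on the plus strand, from 250 bases before to 50 bases after an annotated RefSeq start, over chr5:75152001-75152300, chr9:6168236-6168535 and chr3:81036166-81036465. Capitals mark matches to the motifs listed after the sequences.
Pdgfra: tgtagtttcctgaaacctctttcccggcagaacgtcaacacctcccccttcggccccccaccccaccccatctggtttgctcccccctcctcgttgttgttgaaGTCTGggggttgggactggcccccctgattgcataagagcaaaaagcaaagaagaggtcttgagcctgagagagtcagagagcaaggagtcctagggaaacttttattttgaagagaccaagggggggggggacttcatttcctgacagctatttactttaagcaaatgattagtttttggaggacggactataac
Pdgfd: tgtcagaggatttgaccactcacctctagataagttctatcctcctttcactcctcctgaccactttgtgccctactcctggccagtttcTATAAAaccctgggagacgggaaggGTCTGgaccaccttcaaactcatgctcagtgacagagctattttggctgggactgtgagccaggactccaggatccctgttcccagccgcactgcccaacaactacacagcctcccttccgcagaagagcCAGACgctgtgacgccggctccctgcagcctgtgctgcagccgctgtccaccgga
Pdgfc: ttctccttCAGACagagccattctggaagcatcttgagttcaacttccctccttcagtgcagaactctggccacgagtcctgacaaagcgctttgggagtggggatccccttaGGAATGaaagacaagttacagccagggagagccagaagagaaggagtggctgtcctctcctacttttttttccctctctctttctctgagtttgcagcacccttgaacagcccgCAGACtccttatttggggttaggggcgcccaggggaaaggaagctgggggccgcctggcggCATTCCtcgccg

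Each promoter was searched on both strands for 7 motifs. These were the TATA box with the letters TATAAA, the CCAAT box, the GC box with GGGCGG, and the core of the SMAD-binding element with CAGAC. The others were the AP-1 site with TGANTCA, the TEAD site with GGAATG, and the E-box bound by Snail with CAGGTG. The matches printed did not overlap each other. The Pdgfra promoter held 1 match, to the SMAD-binding element on the minus strand, 146 bases before the start. The Pdgfd promoter held a TATA box 160 bases before the start and the SMAD-binding element 135 and 5 bases before it. The Pdgfc promoter held the SMAD-binding element 242 and 23 bases before the start, and the TEAD site 137 bases before and 38 bases after it. Such matches are common, since the SMAD-binding element occurred in 49.6% of the 32851 promoters in the table, the TEAD site in 14.7% and the TATA box in 13.6%. The CCAAT box, AP-1 site and Snail E-box, which were not matched in these promoters, occurred in 37.4%, 7.81% and 20.2%. The GC content was 51.0% for Pdgfra, 56.7% for Pdgfd and 55.0% for Pdgfc, beside a median of 52.7% over all promoters. The promoters of Pdgfa, from 2 annotated starts, held matches to the GC box only, a motif found in 35.7% of promoters.

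The libraries were alike in depth, with 22005664 to 22753418 counts. The epicardial markers were present in every kind, each of the 10 reaching 10 counts in at least 1 library. Their summed level was 597 to 632 CPM (counts scaled to library size) in pEpiC, 766 to 822 in CDC and 6374 to 7367 in CDC-EpiC. In CDC-EpiC, Upk3b averaged 2664 and Lrrn4 2129 CPM. Of the 10, Wt1, Tcf21, Aldh1a2 and Lrrn4 were higher in pEpiC than in CDC, and 6 were lower. Against pEpiC, 8 were higher in the clone, and Tcf21 and Aldh1a2 were lower. Markers of 6 other cell types were also measured. Fibroblast markers summed to 21573 to 23434 CPM in pEpiC, 6146 to 8137 in CDC and 3589 to 4326 in CDC-EpiC. Mural cell markers summed to 148 to 161, 43.1 to 45.8 and 9.62 to 12.7 CPM in the same order. In pEpiC 7 of the 10 mural genes reached 10 counts in a library, and the most abundant was Des, at 85.7 ± 8.80 CPM (SD, n = 3). Tcf21 is on both the epicardial and the fibroblast list. Macrophage markers summed to 904, 342 and 315 CPM in pEpiC libraries 1, 2 and 3, beside 58.0 to 60.9 in CDC and 22.6 to 25.1 in CDC-EpiC. All 10 macrophage genes reached 10 counts in pEpiC, whereas only Lyz2, Csf1r and Cd68 did so in CDC and in CDC-EpiC, with 786 to 867, 409 to 448 and 36 to 51 counts in CDC and 19.6 to 25.7, 197 to 217 and 281 to 328 in CDC-EpiC. The other 7, among them the defining genes Ptprc, Adgre1 and Tyrobp with at most 1 count, had at most 8 counts in any library of these kinds. Cardiomyocyte markers summed to 137 to 154 CPM in pEpiC, nearly all from Tnnt2 at 144 ± 7.85 CPM (SD, n = 3), to 10.0 to 12.8 in CDC-EpiC, and to 31.1, 31.0 and 9.79 in CDC libraries 1, 2 and 3. Endothelial markers summed to 24.5 to 26.8, 7.51 to 8.61 and 8.58 to 10.0 CPM in pEpiC, CDC and CDC-EpiC. In pEpiC 8 of the 10 endothelial genes reached 10 counts in a library, and the most abundant was Tek, at 17.5 ± 1.29 CPM. Platelet markers summed to 3.54 to 6.29, 3.78 to 4.58 and 17.1 to 18.4 CPM in pEpiC, CDC and CDC-EpiC. In CDC-EpiC nearly all of the platelet sum came from Itga2b, at 17.2 ± 0.665 CPM, while 5 of the 8 platelet genes had at most 3 counts in every library, 3 of them at 0 in all.

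The receptors set the 3 kinds apart most clearly. Levels are given as CPM scaled by the trimmed mean of M-values (TMM), for comparison of 1 gene between libraries, and as TPM, which also correct for transcript length, for comparison between genes. In bulk RNA, fewer cells of a type and less RNA per cell cannot be told apart. Pdgfra encodes the alpha receptor, and its level was 28.4, 24.4 and 34.3 CPM in CDC libraries 1, 2 and 3. It was 59.6, 62.0 and 61.9 CPM in CDC-EpiC and 368, 349 and 333 CPM in pEpiC. The groups did not overlap, and the order was CDC, CDC-EpiC, pEpiC, with the 3 clone libraries nearly level.

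Pdgfrb, at chr18:61045127-61085067, encodes the beta receptor, and its level was 319, 266 and 319 CPM in CDC. It was 59.3, 72.6 and 72.0 CPM in CDC-EpiC and 1195, 1252 and 1208 CPM in pEpiC. The groups again did not overlap, but here the clone was the lowest kind, so that the alpha and beta receptor transcripts ranked the clone and CDC in opposite orders. In TPM, Pdgfrb averaged 97.7 ± 12.1 in CDC, 23.1 ± 2.62 in CDC-EpiC and 546 ± 20.8 in pEpiC (SD, n = 3), and Pdgfra 7.64 ± 1.56, 16.9 ± 0.605 and 128 ± 6.17. In pEpiC only 1.37% of all genes had a higher mean TPM than Pdgfrb, beside 8.69% in CDC and 29.7% in CDC-EpiC.

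**Figure D1:**
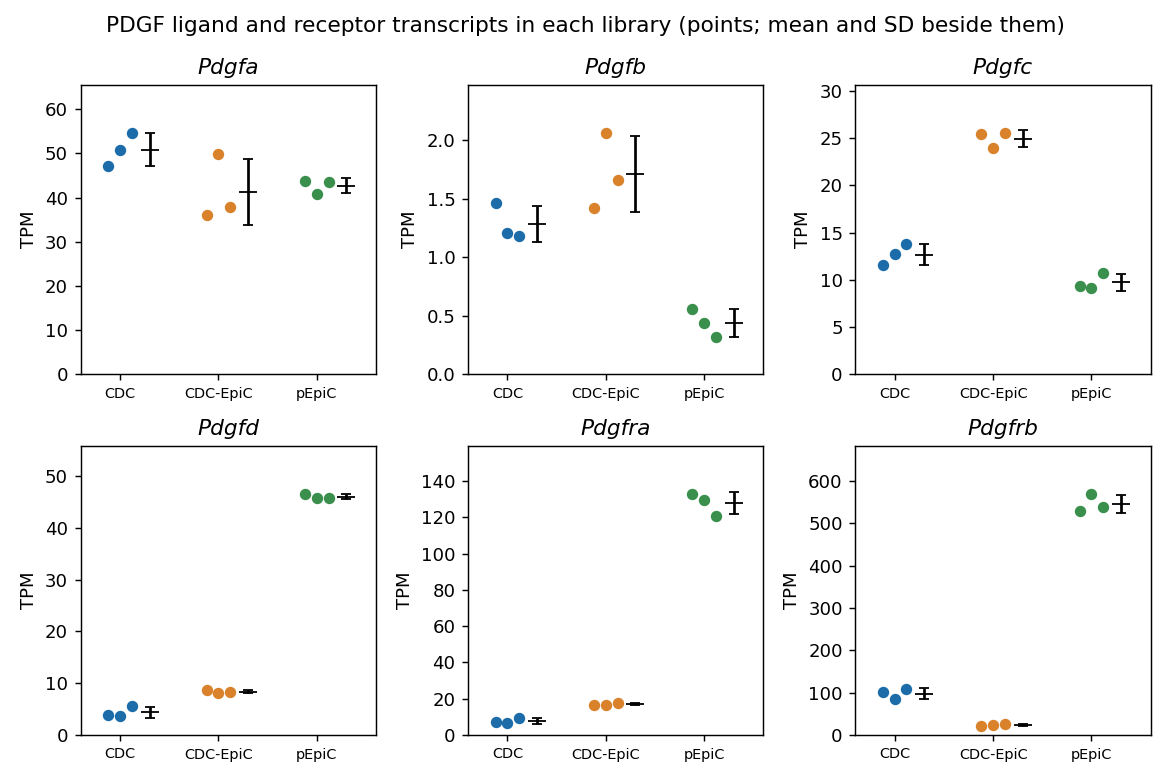
Transcript level (vertical axis, TPM, linear from 0) of each PDGF gene in the 3 libraries of each kind (points), with the mean and SD beside them. Pdgfra, Pdgfrb and Pdgfd stand highest in pEpiC, with means of 128, 546 and 46.1 TPM, whereas Pdgfc stands highest in CDC-EpiC at 25.0 TPM.

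Among the ligands, Pdgfd, whose product is activated by proteolysis and acts mainly through the beta receptor, was 6.22, 6.30 and 8.65 CPM in CDC. It was 12.5, 13.8 and 12.3 CPM in CDC-EpiC and 53.8, 55.8 and 53.1 CPM in pEpiC. Its groups did not overlap and followed the same order as Pdgfra. Pdgfc, the other ligand with a CUB domain, was 22.9, 22.4 and 25.7 CPM in CDC, 42.2, 42.3 and 41.2 in CDC-EpiC, and 13.0, 12.3 and 15.5 in pEpiC. The clone libraries were all the highest and the pEpiC libraries all the lowest for Pdgfc.

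Pdgfa, which encodes the chain that forms PDGF-AA, was 40.5, 45.1 and 44.2 CPM in CDC, 29.5, 41.0 and 30.2 in CDC-EpiC, and 28.9, 26.1 and 28.1 in pEpiC. CDC-EpiC library 2 stood above the other clone libraries, which lay close to pEpiC. Pdgfb, which encodes the chain of PDGF-BB, was the scarcest member, with 19.0 to 96.8 counts a library. Its level was 3.32, 2.95 and 2.96 CPM in CDC, 2.62, 4.42 and 3.33 in CDC-EpiC, and 1.38, 0.823 and 0.917 in pEpiC. CDC and CDC-EpiC overlapped for Pdgfb, and all pEpiC libraries lay below both.

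Within a kind, the order of the members was compared in TPM. In CDC it ran from Pdgfrb at 97.7 ± 12.1 through Pdgfa at 50.9 ± 3.69, Pdgfc at 12.7 ± 1.12, Pdgfra at 7.64 ± 1.56 and Pdgfd at 4.35 ± 1.09 to Pdgfb at 1.28 ± 0.154 TPM, and no neighbours overlapped. In CDC-EpiC it was Pdgfa at 41.3 ± 7.48, Pdgfc at 25.0 ± 0.877, Pdgfrb at 23.1 ± 2.62, Pdgfra at 16.9 ± 0.605, Pdgfd at 8.32 ± 0.271 and Pdgfb at 1.71 ± 0.323 TPM, where only Pdgfc and Pdgfrb overlapped. In pEpiC both receptors stood above every ligand, at 546 ± 20.8 for Pdgfrb and 128 ± 6.17 for Pdgfra, followed by Pdgfd at 46.1 ± 0.457, Pdgfa at 42.7 ± 1.69, Pdgfc at 9.73 ± 0.896 and Pdgfb at 0.44 ± 0.12 TPM. The receptors together summed to 674 ± 21.9 TPM in pEpiC, 105 ± 13.5 in CDC and 40.0 ± 3.13 in CDC-EpiC. The ligands together varied far less, with 98.9 ± 2.55, 69.2 ± 5.64 and 76.3 ± 6.69 TPM in the same order. These TPM sums were not TMM-scaled, so differences between kinds include a shift shared by all genes. On log2(TPM + 1), the median change of all genes was 0.32 in pEpiC against CDC and -0.25 in CDC-EpiC against pEpiC.

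To show how the receptors stood to each other, the log2 ratio of Pdgfra to Pdgfrb TPM was taken in each library. It was -3.80, -3.74 and -3.52 in CDC, -0.29, -0.52 and -0.51 in CDC-EpiC, and -2.00, -2.14 and -2.16 in pEpiC. Pdgfrb was thus 11.5 to 13.9 times Pdgfra in CDC, 3.99 to 4.46 times in pEpiC and 1.22 to 1.44 times in the clone, and the groups did not overlap. The difference in mean log2 ratio was 3.25 between CDC-EpiC and CDC, 1.66 between CDC-EpiC and pEpiC and 1.59 between pEpiC and CDC. Each of the 3 two-sided exact permutation tests gave p = 0.1, also after Benjamini-Hochberg adjustment, which is the smallest value that 3 libraries against 3 can give and does not reach 0.05.

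The ligand mix, as each ligand's share of summed ligand TPM, also differed by kind. Pdgfa made up 73.6 ± 0.824% in CDC, 53.8 ± 4.86% in CDC-EpiC and 43.1 ± 0.626% in pEpiC (SD, n = 3). Pdgfc held 18.3 ± 0.285%, 33.0 ± 3.84% and 9.83 ± 0.754% in the same order, and Pdgfd 6.24 ± 1.09%, 11.0 ± 1.24% and 46.6 ± 1.0%. Pdgfb held at most 2.45% in any library. The library ranges of Pdgfa, Pdgfc and Pdgfd did not overlap between kinds, and these shares were not tested. TPM leave in the length trend of the pEpiC comparisons that is given below. Whether the close order of Pdgfd and Pdgfa in pEpiC depends on that trend was not tested. Shares of ligand counts, without length correction, put Pdgfc first in the clone, at 45.9 ± 3.72% against 36.4 ± 3.52% for Pdgfa.

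**Figure D2:**
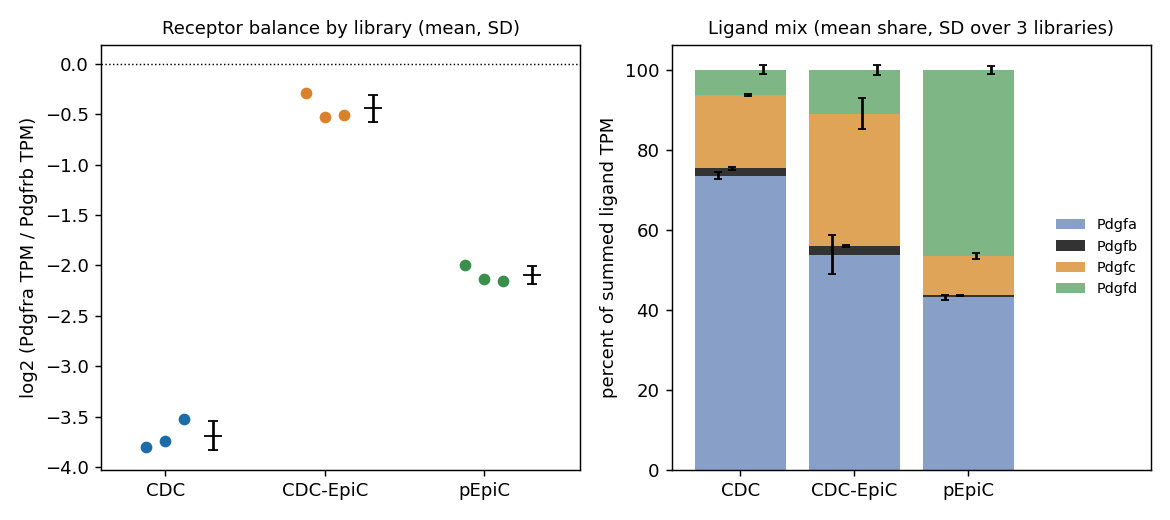
Left, the log2 ratio of Pdgfra to Pdgfrb TPM (vertical axis) in each library, with the mean and SD beside the points; right, the mean share of summed ligand TPM (percent) held by each ligand, with SD bars over 3 libraries. CDC-EpiC lies nearest to equal receptors at -0.44 ± 0.13, and Pdgfd takes 46.6% of the pEpiC bar against 6.24% in CDC.

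Primary epicardial cells were first set against cardiosphere-derived cells. Both receptors and Pdgfd were higher in pEpiC, and the other 3 ligands were lower. Pdgfra was 11.8-fold higher, with a log2 change of 3.56 ± 0.11 (SE) and an edgeR adjusted p of 2.3e-09. Pdgfd was 7.49-fold higher (log2 change 2.90 ± 0.11, adjusted p = 6.8e-09) and Pdgfrb 3.94-fold higher (1.98 ± 0.08, adjusted p = 1.2e-08). The falls were smaller, by 1.59 ± 0.23 for Pdgfb, 0.84 ± 0.10 for Pdgfc and 0.68 ± 0.07 for Pdgfa on the log2 scale, with adjusted p of 9.7e-05, 2.5e-05 and 8.4e-06.

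All 6 members passed the adjusted p threshold of 0.05, where 78.3% of the 13526 genes tested did, and all 6 had groups that did not overlap, as did 81.4% of genes. The 3 that were higher stand beside 39.8% of genes, the 3 that were lower beside 38.5%, and the 4 that passed with at least a 2-fold change beside 30.1%. The plain count of members that passed is therefore close to the background. Their median size of change was 1.79 on the log2 scale, against 0.61 over all genes, and 5.14% of genes changed by more than Pdgfra. On these 6 libraries longer transcripts tended to be higher in pEpiC, by 0.44 log2 for each doubling of length. With that trend taken out, Pdgfra was 2.95, Pdgfrb 1.48 and Pdgfd 2.78 log2 higher, and Pdgfa fell by 0.42, a change that had been 0.68. Pdgfb and Pdgfc then had log2 changes of -1.92 and -1.02, larger falls than before. All 10 fibroblast markers were also higher in pEpiC, as were 5 of 7 mural and all 10 macrophage markers tested, and their part in the receptor and ligand changes was not tested.

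The clone was next set against CDC, the kind of cells it was picked from. Pdgfrb fell and Pdgfra rose, while the ligands with a CUB domain rose and Pdgfa fell slightly. Pdgfrb was 4.47-fold lower (log2 change -2.16 ± 0.10, edgeR adjusted p = 4.6e-11) and Pdgfra 2.09-fold higher (1.07 ± 0.10, adjusted p = 1.7e-07). Pdgfd rose by 0.86 ± 0.13 and Pdgfc by 0.82 ± 0.08 on the log2 scale, with adjusted p of 3.3e-05 and 2.3e-07. Pdgfa fell by 0.38 ± 0.11 (adjusted p = 0.00678) although its libraries overlapped, since CDC-EpiC library 2 lay above CDC library 1; the fall was 0.56 without that clone library and 0.30 to 0.56 over all 6 that could be left out. Pdgfb did not pass, with a log2 difference of 0.16 and a 95% interval from -0.26 to 0.58.

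Of the 6 members, 5 passed, where 68.8% of 12976 genes did, and 4 had groups that did not overlap, beside 71.7% of genes. Higher in the clone were 3 members, beside 34.2% of genes, lower were 2, beside 34.6%, and both receptors changed at least 2-fold, as did 21.7% of genes. Pdgfrb had the largest change of the members, with 7.12% of genes changing by more, beside 20.1% for Pdgfra. Transcript length had almost no trend here, at 0.0062 log2 for each doubling. Of 9 fibroblast markers tested, 7 were lower and 2 higher in the clone, and of 5 mural markers 4 were lower, among them Notch3, the direction of Pdgfrb and not that of Pdgfra, and their part in either change was not tested. The epicardial list went the other way, with 7 of 10 markers higher in the clone and 2 lower.

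Last, the epithelial clone was set against primary epicardial cells, the cells it was named after. Both receptors and Pdgfd were lower in the clone, and Pdgfb and Pdgfc were higher. Pdgfrb was 18.1-fold lower (log2 change -4.18 ± 0.08, edgeR adjusted p = 9.9e-11) and Pdgfra 5.78-fold lower (-2.53 ± 0.06, adjusted p = 1.9e-10). Pdgfd fell by 2.09 ± 0.06 (adjusted p = 1.2e-09), whereas Pdgfb was 1.71 ± 0.27 and Pdgfc 1.61 ± 0.08 higher (adjusted p = 0.00019 and 5.6e-08). Pdgfa did not pass, with a log2 difference of 0.26, a 95% interval from -0.0013 to 0.52 and an adjusted p of 0.0615.

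In this comparison 5 of 6 members passed, where 81.9% of 13547 genes did, and the same number had groups that did not overlap, beside 83.5% of genes. Higher in the clone were 2 members, beside 40.3% of genes, lower were 3, beside 41.5%, and all 5 changed at least 2-fold, as did 35.9% of genes. The length trend was -0.44 log2 for each doubling, and with it taken out Pdgfrb fell by 3.57, Pdgfra by 1.81 and Pdgfd by 1.90. Pdgfb and Pdgfc were then 2.13 and 1.86 higher, which was more than before. Pdgfa was then 0.099 higher (edgeR adjusted p = 0.443). Fibroblast markers were lower in the clone for 9 of 10 genes, mural markers for 7 of 8 tested and macrophage markers for all 10, and their part in the changes was not tested. The 3 comparisons share libraries, so their values are not independent of each other.

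**Figure D3:**
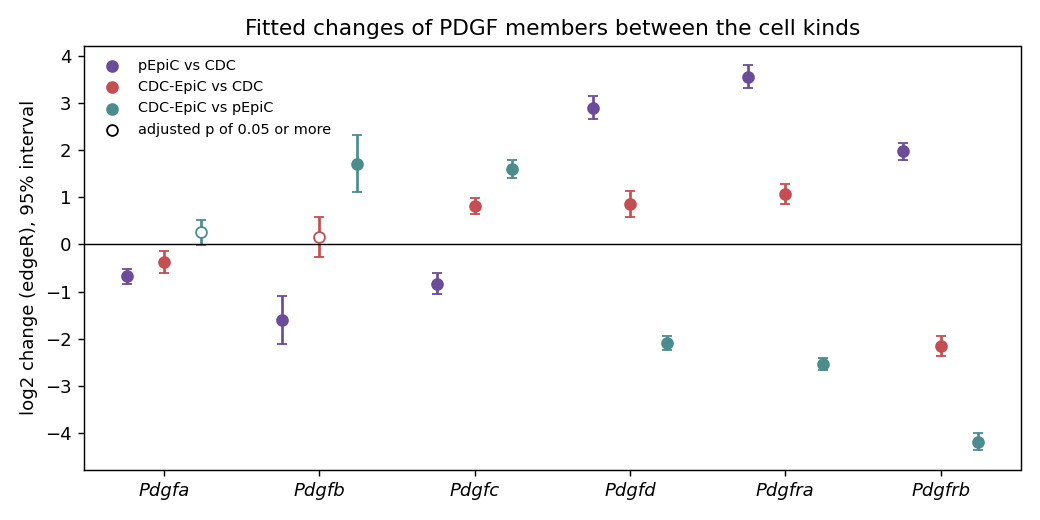
Fitted log2 change (vertical axis) of each member in the 3 comparisons (colours), with 95% intervals; open points did not pass an adjusted p of 0.05. Pdgfrb spans from -4.18 in CDC-EpiC against pEpiC to 1.98 in pEpiC against CDC, and the open points are Pdgfb in CDC-EpiC against CDC and Pdgfa in CDC-EpiC against pEpiC.

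The genes whose products cut and free the PDGF ligands, and the inhibitors of these proteases, were mostly lower in the clone. Against CDC, 2 of 9 tested rose and 6 fell, with a median of -1.42, where 34.2% of all genes rose and 34.6% fell. Against pEpiC 1 of 10 rose and 7 fell, with a median of -1.22, where 40.3% of all genes rose and 41.5% fell. This count against pEpiC was made with the length trend left in. The median of all genes was close to 0 in both comparisons. Plat, which encodes the tissue plasminogen activator that cleaves PDGF-C, rose in the clone by 1.07 ± 0.09 against CDC and 0.84 ± 0.05 against pEpiC. Against CDC, the proprotein convertase gene Pcsk6 fell by 2.27 ± 0.11 log2 in the clone, and Pcsk7 was 0.37 ± 0.08 higher.

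Between pEpiC and CDC the same list had 6 genes higher and 3 lower of 10, beside 39.8% and 38.5% of all genes. Its median was 0.28. With the length trend taken out, the list had 4 higher and 3 lower and a median of 0.07. Serpine2, a serine protease inhibitor, was 2.80 ± 0.07 log2 higher in pEpiC, and it was 4.73 ± 0.07 lower in the clone than in pEpiC. Pcsk5, another proprotein convertase, averaged 19.9 CPM in pEpiC, 0.990 in CDC and 0.0892 in CDC-EpiC, where it had at most 4 counts a library. Plaur, the urokinase receptor gene, fell by 1.60 ± 0.09 log2 in pEpiC against CDC.

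With the length trend left in, extracellular partners, which bind the ligands or receptors, were mostly higher in pEpiC and mostly lower in the clone. Of 10 tested, 8 were higher and 1 lower in pEpiC than in CDC, 0 were higher and 8 lower in the clone than in pEpiC, and of 9 tested 1 was higher and 7 were lower in the clone than in CDC. With the length trend taken out, the first of these counts became 5 higher and 4 lower. The count for the clone against pEpiC was made with that trend left in. Over all genes, the shares higher and lower were 39.8% and 38.5%, 40.3% and 41.5%, and 34.2% and 34.6%, in the same order. Pdgfrl, which encodes a receptor-like protein without a kinase, was 2.51 ± 0.13 log2 higher in pEpiC than in CDC, and it fell by 3.85 ± 0.18 in the clone against pEpiC. Lrp1, an endocytic co-receptor, was 2.48 ± 0.08 lower in the clone than in pEpiC, and Nrp1, neuropilin 1, 1.39 ± 0.09 lower in the clone than in CDC. Thbs1, thrombospondin 1, was 1.31 ± 0.09 lower in pEpiC and 3.41 ± 0.16 lower in the clone than in CDC. Dcn, the matrix proteoglycan decorin, differed from most of the list, at 1.99 ± 0.13 higher in the clone and 1.84 ± 0.12 higher in pEpiC than in CDC. Dcn is also a gene of the fibroblast marker list.

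The 23 effectors, which carry the signal from the phosphorylated receptors, moved less. Between pEpiC and CDC 11 were higher and 4 lower, with a median of 0.20, where 39.8% of all genes were higher and 38.5% lower, and the split turned to 5 higher and 11 lower when the length trend was taken out. Pik3ca and Pik3r1, the catalytic and regulatory subunits of phosphoinositide 3-kinase, were 1.39 ± 0.06 and 1.04 ± 0.08 log2 higher in pEpiC, and Stat5a was 0.70 ± 0.08 lower. In the clone 12 were higher and 4 lower than in CDC, where 34.2% of all genes were higher and 34.6% lower. The clone against pEpiC gave 11 in each direction, with the length trend left in, beside 40.3% and 41.5% of all genes. The adaptor genes Slc9a3r1 and Slc9a3r2, whose products link PDGF receptors to the actin skeleton, were 3.06 ± 0.09 and 1.29 ± 0.08 higher in the clone than in CDC, while Fyn, a Src family kinase, was 1.95 ± 0.09 lower. Slc9a3r1 was also 4.10 ± 0.08 higher in the clone than in pEpiC, and it was 1.08 ± 0.07 lower in pEpiC than in CDC. Ptpn11, the phosphatase SHP2, fell by 0.45 ± 0.09 in the clone against CDC.

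Genes that dampen receptor signalling were mixed. Of 14, 9 were higher and 4 lower in pEpiC than in CDC, 5 higher and 7 lower in the clone than in CDC, and 6 higher and 7 lower in the clone than in pEpiC, and without the length trend the first became 5 and 5. The clone against pEpiC was counted with that trend left in. Over all genes, the shares higher and lower were 39.8% and 38.5%, 34.2% and 34.6%, and 40.3% and 41.5% in these comparisons. The Sprouty genes, inhibitors of the Ras pathway, did not move together, since Spry2 was 1.51 ± 0.09 log2 higher and Spry1 1.10 ± 0.09 lower in the clone than in CDC. Spry4 was 1.70 ± 0.08 higher in the clone than in pEpiC. Ptprj, a receptor phosphatase that acts on PDGF receptors, was 2.53 ± 0.11 higher in the clone than in CDC and 1.39 ± 0.08 higher than in pEpiC. Grb10, an adaptor that binds receptor kinases, averaged 356 CPM in pEpiC, 3.52 in CDC and 0.239 in CDC-EpiC, where it had 3 to 7 counts a library. Socs3 and Acp1 were 0.98 ± 0.08 and 0.67 ± 0.05 lower in pEpiC than in CDC, and Rasa1 was 0.58 ± 0.08 lower in the clone than in CDC.

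Genes known to be induced by PDGF in fibroblasts were mostly higher in CDC than in either of the other kinds. Of 12, 9 were lower and 1 higher in pEpiC than in CDC, with a median of -1.53, and 10 were lower and 2 higher in the clone than in CDC, with a median of -0.70. Against pEpiC, 9 were higher and 3 lower in the clone, with a median of 0.91. For all genes, the shares higher and lower were 39.8% and 38.5%, 34.2% and 34.6%, and 40.3% and 41.5%, in the same order. The counts that involve pEpiC were made with the length trend left in. Fosl1, an AP-1 subunit, had a log2 change of -4.09 ± 0.12 and Has2, a hyaluronan synthase, of -3.93 ± 0.12 in pEpiC against CDC, and their changes in the clone against CDC were -2.61 ± 0.19 and -2.75 ± 0.11. Fos rose by 1.18 ± 0.12 in the clone against CDC and by 1.30 ± 0.12 against pEpiC. Egr1 was 0.33 ± 0.12 higher in the clone than in CDC, but 0.13 without CDC-EpiC library 3, which lost the call (edgeR adjusted p = 0.291). Ier3 was 1.82 ± 0.10 higher in the clone than in pEpiC, and Sphk1, a sphingosine kinase, 1.82 ± 0.11 lower. Many other signals also induce these genes, and the part of the different culture media and serum was not tested.

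Of the related class III receptor kinases and their ligands, 6 of 7 were tested. In pEpiC 4 were higher and 2 lower than in CDC, or 2 and 2 with the length trend taken out. In the clone 5 were lower than in CDC and 0 higher. Of all genes, 39.8% were higher and 38.5% lower in pEpiC than in CDC, and 34.2% higher and 34.6% lower in the clone. Csf1, the macrophage growth factor, was 0.97 ± 0.08 log2 lower in pEpiC and 1.99 ± 0.11 lower in the clone than in CDC, and Kitl, the ligand of KIT, was 1.85 ± 0.06 lower in pEpiC than in CDC and 1.76 ± 0.06 higher in the clone than in pEpiC. Csf1r, a macrophage gene that neighbours Pdgfrb, was 1.04 ± 0.37 higher in pEpiC than in CDC (edgeR adjusted p = 0.0265), which was lost with DESeq2 (adjusted p = 0.0787), with the length trend taken out (adjusted p = 0.0798) and without any 1 CDC library (adjusted p = 0.0698 to 0.0751).

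**Figure D4:**
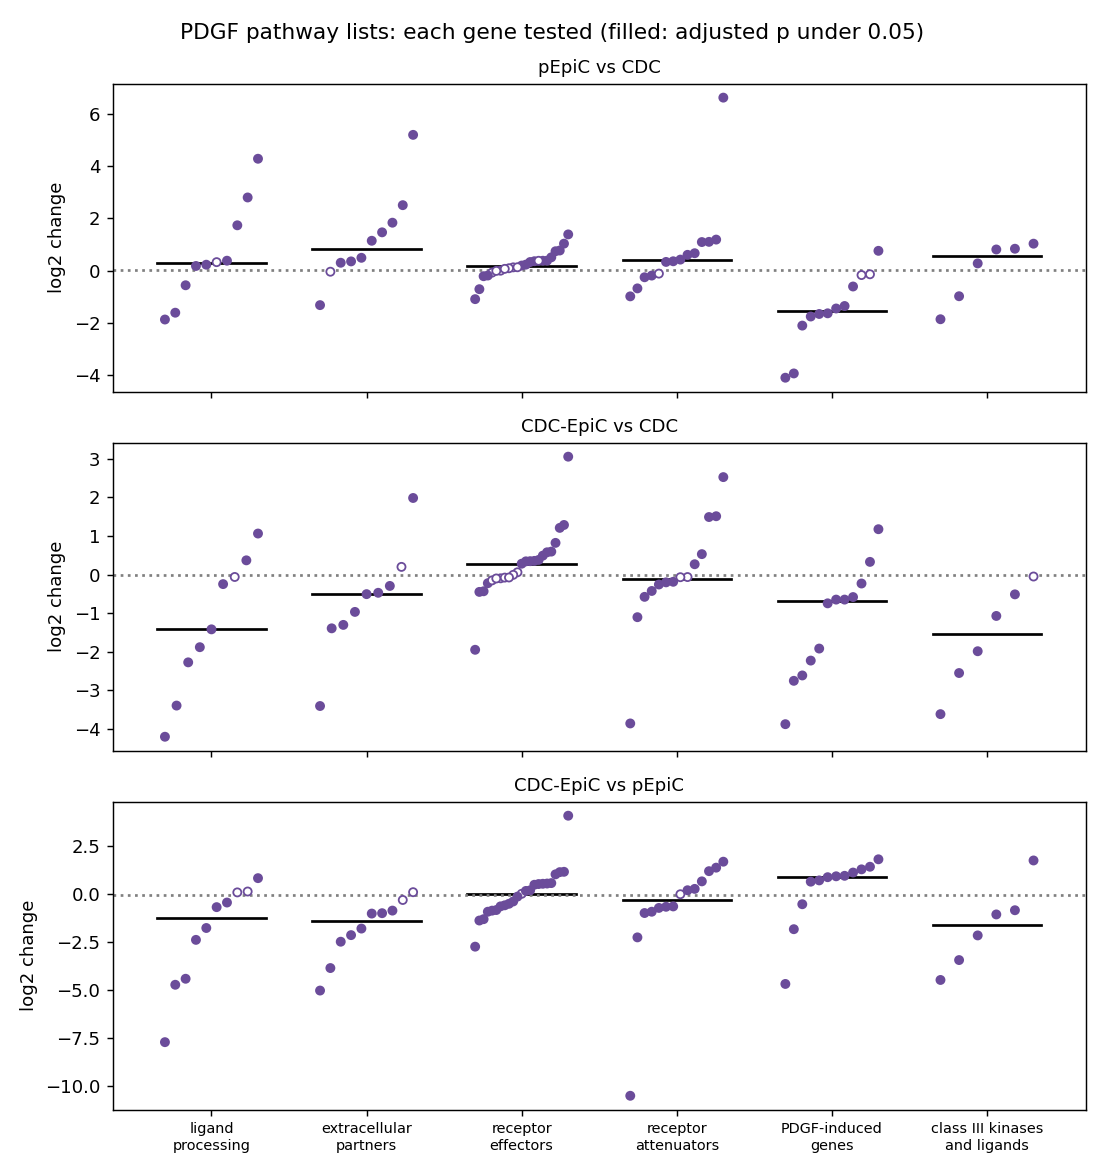
Fitted log2 change (vertical axis) of each tested gene of the 6 pathway lists in the 3 comparisons (panels), filled where the adjusted p was under 0.05; black bars are list medians and the dotted line the median of all genes tested. The PDGF-induced genes lie mostly below 0 in pEpiC against CDC (median -1.53), and the extracellular partners mostly below 0 in CDC-EpiC against pEpiC (median -1.40). All changes shown were fitted with the length trend left in.

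The genes whose pattern over the 9 libraries lay nearest to each member were found by the root mean square difference of centred log2(CPM + 1), among about 9448 genes with at least 10 CPM on average. Nearest to Pdgfrb were Dkk3, Mgp and Gpc1, with differences of 0.13, 0.15 and 0.16 log2. Among the nearest to Pdgfra were Ptprd and Lpl, at 0.17 and 0.20. Pdgfd lay nearest to Lrrn4cl, Bnc2 and Kazn, at 0.14, 0.17 and 0.18.

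For the other ligands, Pdgfc lay nearest to Ak5, Sqor and Aldh1a1, at 0.08, 0.10 and 0.10 log2, and Pdgfa to Tmem219, Rras and Sbno2, at 0.09, 0.10 and 0.10. Pdgfb lay nearest to Syngr2, Phf5a and Rhod, each at 0.13 or 0.14. At the low level of Pdgfb, the 1 added to CPM shrinks its differences in this measure. Its mean was 3.07 CPM in CDC and 1.04 in pEpiC, beside 179 and 92.7 for Syngr2. No gene was among the nearest to more than 1 member. With 3 kinds and small spread within them, these likenesses rest mainly on the 3 group means.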

How the data were processed

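Poly(A) RNA of 9 libraries, 3 of each kind, was sequenced as paired reads. Per the labels and the submitters' processing notes, the authors aligned the reads with HISAT2 2.0.4 and Bowtie2 2.2.5 to mm10 and estimated expression with RSEM 1.2.12. The annotation and strand setting were not given in the sources used here. They deposited, for 18245 genes, expected counts (30.3% of which were not whole), FPKM and TPM, beside 9 columns of the authors' means, which were not used. DESeq2 1.4.5 is also named in these notes.

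The deposited expected counts were rounded and tested with edgeR 4.0.16 in R 4.3.3, by quasi-likelihood tests on the 6 libraries of each comparison, with TMM scaling, filterByExpr (minimum count 10, minimum total 15) and Benjamini-Hochberg adjustment over all genes tested, at a threshold of 0.05. CPM were scaled over all 9 libraries. The deposited TPM served for levels between genes, and the deposited FPKM and TPM for alternatives with limma 3.58.1 on log2(value + 1). The other alternatives were DESeq2 1.42.0, other scalings and filters, an offset for transcript length, a replicate block, all 9 libraries in a single fit, and leaving out each library. The fits were tested on simulated counts. The depth of 22005664 to 22753418 counts limits Pdgfb most. Antisense or overlapping transcripts could not be separated without a stated strand setting.

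The members and gene lists were chosen with earlier results of these data known. From each pathway list, genes were named where they had the largest rises and falls, up to 2 of each. These were taken among those past the threshold with at least 10 CPM in the higher kind. Ptprc, Adgre1, Tyrobp, Csf1r as a marker, Notch3, Wt1, Tcf21 and Aldh1a2 were named after their values were seen. Some genes that these rules select are not reported here. Promoters and positions came from RefSeq tables for GRCm38.p6, in which all 6 members matched by symbol and 4 had a promoter.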

Additional observations from a re-analysis of the deposited data

How the results depend on the processing

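Of the 18 member changes, 16 passed the threshold. All 16 kept their direction under every alternative run, and their call under every alternative with more than 1 library a kind. An alternative chosen after seeing the data kept library 3 as the only CDC library. For the clone against CDC it gave 0.57 for Pdgfd, 0.83 for Pdgfra, 0.70 for Pdgfc, -2.24 for Pdgfrb and -0.40 for Pdgfa. The other 2 of the 18 changes did not hold still. Pdgfb in CDC-EpiC against CDC turned to -0.068 without CDC-EpiC replicate 2 (edgeR adjusted p = 0.785), and ranged from -0.068 to 0.31 with 1 library left out. Pdgfa in CDC-EpiC against pEpiC passed with all 9 libraries in a single fit (0.26, adjusted p = 0.0393) and with limma on log2(FPKM + 1) (0.29, adjusted p = 0.0456), turned to -0.062 with limma on log2(TPM + 1) (adjusted p = 0.624), and ranged from 0.10 to 0.35 with 1 library left out, passing without CDC-EpiC library 1 (0.35), CDC-EpiC library 3 (0.34) or pEpiC library 1 (0.29). The cause was not tested. The pseudocount of 1 on FPKM brought Pdgfb in pEpiC against CDC to -0.53. On TPM the median of all genes moved to 0.32 in pEpiC against CDC and to -0.25 in CDC-EpiC against pEpiC, and the share of calls that were higher went from 50.8% to 74.3% and from 49.3% to 32.2%. Relative to those medians, Pdgfa was -0.57 in pEpiC against CDC and 0.19 in CDC-EpiC against pEpiC. Taking shares of ligand counts in place of TPM, which drops the length correction, gave Pdgfa, Pdgfb, Pdgfc and Pdgfd 56.2%, 4.0%, 30.7% and 9.12% in CDC, 36.4%, 3.73%, 45.9% and 14.0% in CDC-EpiC, and 28.7%, 1.08%, 14.1% and 56.2% in pEpiC. Libraries of the same number did not deviate together (correlations from -0.10 to 0.16), so the numbers were not taken as pairs, and the fit with a replicate block called 10604, 8831 and 11096 genes in the 3 comparisons, against 10593, 8928 and 11091, and changed no call of a member. Of 61 named changes of pathway genes, all kept their direction, but besides Csf1r, 3 genes missed the threshold under some alternatives, namely Egr1 in CDC-EpiC against CDC without CDC library 2 (0.27), CDC library 3 (0.32) or CDC-EpiC library 3 (0.13) or with CDC library 3 as the only CDC library, an alternative chosen after seeing the data (0.35), Ccl7 in CDC-EpiC against pEpiC without CDC-EpiC library 1 (-0.45), CDC-EpiC library 3 (-0.38) or pEpiC library 3 (-0.48), and Stat5a in pEpiC against CDC with limma on log2(TPM + 1) (-0.18, adjusted p = 0.0758).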

Other observations

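The length that the deposited values imply for Pdgfa, its counts divided by its FPKM, was 1486 to 1531 bases in CDC, 1489 to 1520 in CDC-EpiC and 1559 to 1586 in pEpiC, so the pEpiC libraries lay above the others. For Pdgfrb it was 5462 to 5465, 5464 to 5476 and 5414 to 5428 bases, with pEpiC the shortest. For Pdgfb it was 3945 to 4589, 3444 to 3872 and 4704 to 7289 bases, with pEpiC the longest, from FPKM values of 0.13 to 0.24 in pEpiC that were given to 2 decimals. These values rest on how RSEM shared reads among transcripts, and transcripts were not measured here.

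Csf1r lies 20504 bases from Pdgfrb on chromosome 18 in the RefSeq table. It was 19.6 ± 1.06 CPM in CDC, 9.41 ± 0.572 in CDC-EpiC and 41.3 ± 28.3 in pEpiC (SD, n = 3). Lyz2, also on the macrophage list, was 37.7 ± 1.80 CPM in CDC, and Cd68 was 13.3 ± 1.06 CPM in CDC-EpiC.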
